A study of Mus musculus with 6 samples.

Results

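Calcium ions that enter a neuron are bound by proteins of the EF-hand family, and 10 genes for such proteins were followed here in the postnatal mouse brainstem. They were chosen by name, as a set of well known calcium buffers and sensors of neurons, with earlier results of these data known. The set holds the buffers *Calb1*, *Calb2* and *Pvalb*, the glial and neuronal protein gene *S100b*, and the sensors *Hpca*, *Hpcal1*, *Hpcal4*, *Ncald*, *Ncs1* and *Vsnl1*. They are 10 of the 23212 gene names found on the 34632 loci of the deposited assembly. Each lay on a single locus that carried no other gene name, and all 10 passed the filter on low counts.

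RNA-Seq of whole brainstem was performed on 6 libraries at postnatal day (P) 21. The 3 *Hoxa5* control libraries came from *Hoxa5*flox/flox;CMV-CreERT2-/- pups and the 3 *Hoxa5* cKO libraries from *Hoxa5*flox/flox;CMV-CreERT2+/- pups, in a mixed genetic background, with controls from the same litters. All pups carried both floxed alleles and received tamoxifen from P1 to P4, so that the genotypes differed by the Cre recombinase, whose CMV promoter is active in most cell types and not only in neurons. Each library was made from RNA pooled over 3 brainstems, so the spread given below is the spread between pools, and the comparison asks which transcripts changed when *Hoxa5* was inactivated after birth.

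EF-hand proteins hold calcium in paired helix-loop-helix sites. Buffers such as calbindin, calretinin and parvalbumin bind the ion after each burst of activity and so shape how long and how far a calcium signal reaches, and they are the classical markers of neuron classes in the cerebellum and brainstem. The neuronal calcium sensors (hippocalcin, neurocalcin, frequenin and the visinin-like proteins) instead change shape when they bind calcium, and most carry a fatty acid at their start that then attaches them to the membrane.

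The sensors are close relatives, and the starts of their coding sequences show this. The first 60 bases of the coding sequence are given for 5 of the 6 sensors (5′ to 3′, GENCODE M21 on GRCm38), because in this family they encode the part to which the fatty acid is joined. Capitals mark the 31 positions at which all 5 genes have the same base.

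Hpca: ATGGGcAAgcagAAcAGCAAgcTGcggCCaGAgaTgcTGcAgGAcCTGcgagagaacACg
Hpcal1: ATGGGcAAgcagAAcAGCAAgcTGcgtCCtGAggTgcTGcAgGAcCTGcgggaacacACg
Hpcal4: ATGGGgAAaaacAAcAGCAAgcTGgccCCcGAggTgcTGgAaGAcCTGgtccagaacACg
Ncs1: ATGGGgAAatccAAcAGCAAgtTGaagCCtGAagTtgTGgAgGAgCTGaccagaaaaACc
Vsnl1: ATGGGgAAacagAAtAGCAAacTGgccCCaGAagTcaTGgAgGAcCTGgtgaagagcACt

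Over the whole coding sequence, *Hpca* and *Hpcal1* were the closest pair, with 86.0% identity, followed by *Hpcal4* and *Vsnl1* with 82.4% and *Hpcal1* and *Ncald* with 80.1%. *Calb1* and *Calb2* were 62.5% identical. The longest stretch of identical bases in any of the 45 pairs of transcripts was 46 bases, between *Hpca* and *Ncald*, and no pair shared a stretch as long as a read of 75 bases. How reads with mismatches were assigned was not examined.

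The 10 genes are spread over 6 chromosomes (mm10), with *Calb1* at chromosome 4, 15881214 to 15908494, *Calb2* at chromosome 8, 110142538 to 110168206, and *Pvalb* at chromosome 15, 78191118 to 78206351. *S100b* lies at chromosome 10, 76253836 to 76261319. Of the sensors, *Hpca* lies at chromosome 4, 129111574 to 129122094, *Hpcal4* at chromosome 4, 123183504 to 123194699, and *Ncs1* at chromosome 2, 31245737 to 31297776. *Hpcal1* lies at chromosome 12, 17690814 to 17791965, *Vsnl1* at chromosome 12, 11325245 to 11436649, and *Ncald* at chromosome 15, 37366175 to 37792498. In each case the assembled locus overlapped the RefSeq gene of the same name. Exons of *Hpca* and *Ncs1* overlapped those of a locus on the other strand by 106 and 26 bases, and those loci held on average 1.0 and 48.3 fragments against 749.0 for *Hpca* and 4103.2 for *Ncs1*.

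The libraries held 12034613 to 13202707 fragments. The assembly joins *Hoxa5* with *Hoxa6* and *2700086A05Rik* in a single locus, so its fragments are not those of *Hoxa5* alone. This *Hoxa5* locus went against the labels in part: it held 202, 337 and 77 fragments in the libraries labelled control 1, 2 and 3 and 279, 57 and 63 in those labelled cKO 1, 2 and 3 (log2 fold change -0.62, standard error (SE) 0.48, edgeR adjusted p = 0.893). Directions below therefore rest on the labels, and the values of the buffer genes and of *S100b* are also given without control 3 and cKO 1. These 2 libraries were singled out by the *Hoxa5* locus, so its own value without them is not given. Transcripts of 4 Y-linked genes summed to 1069 to 1734 fragments in 5 libraries and to 3 in cKO 1. All 6 hindbrain markers examined were detected, with a summed level of 276.9 to 356.3 CPM (fragment counts scaled to a common, normalised library size), while the telencephalic markers summed to 3.99 to 5.53 CPM.

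Among the 10 genes, the calbindin gene *Calb1* was lower in the libraries labelled cKO, by 37.8%, and the other 9 did not pass the test. edgeR's quasi-likelihood test with Benjamini-Hochberg adjustment called 116 of 21854 loci (0.531%) at an adjusted p under 0.05, of which 110 (0.503%) were lower in cKO. At an unadjusted p under 0.05, 3 of the 10 genes were lower (*Calb1*, *Pvalb* and *Calb2*) and 0 higher, against 4.03% and 2.91% of all tested loci. The CPM of the genotypes did not overlap for *Calb1* and *Pvalb*, lower in cKO, and for *Vsnl1*, higher in cKO; 6.54% and 5.61% of all loci parted in these directions. The median log2 fold change of the 10 genes was -0.01 and that of all tested loci 0.00.

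**Figure D1:**
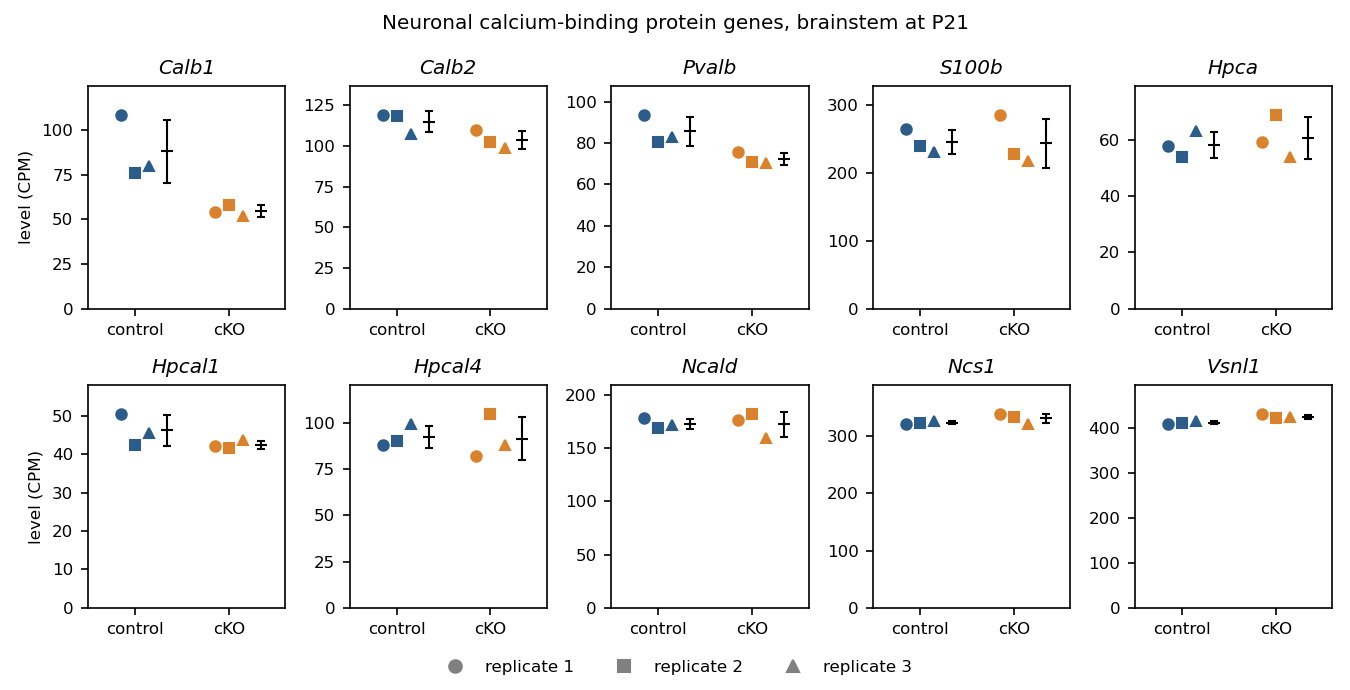
Level in CPM (y axis, starting at 0) of each of the 10 genes in the 3 control and 3 cKO libraries (x axis); symbols give the replicate, and the bar beside each group its mean and SD (n = 3 pools). *Calb1* lies between 76.2 and 108.5 CPM in the controls and between 51.9 and 58.2 CPM in cKO, whereas the groups of most sensors overlap.

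*Calb1* encodes calbindin-D28k, a fast buffer that is abundant in Purkinje cells of the cerebellum and present in many brainstem neurons. Its locus held 1324, 935 and 1058 fragments in control 1, 2 and 3 and 651, 758 and 657 in cKO 1, 2 and 3. These counts correspond to 108.5, 76.2 and 80.0 CPM in the controls and to 54.3, 58.2 and 51.9 CPM in cKO. The groups did not overlap, and control 1 stood above the other controls. The mean fell from 88.2 ± 17.7 to 54.8 ± 3.17 CPM (SD, n = 3 pools each), a log2 fold change of -0.69 (SE 0.10, 95% interval -0.90 to -0.47), with an edgeR adjusted p of 0.00309. In a bulk sample, fewer cells that express a gene and less RNA per cell cannot be told apart. The study also measured *Calb1* by RT-qPCR in dissected parts of the brainstem. It was not lower in the caudal medulla oblongata of cKO pups, and in the pons its fall came close to significance without reaching it. By in situ hybridization the study detected *Calb1* transcripts in several nuclei of the medulla and in a nucleus of the pons.

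The fall of *Calb1* kept its direction when any single library was left out, with log2 fold changes from -0.78 to -0.51 and edgeR adjusted p-values from 9.14e-04 to 0.0174. The smallest fall, -0.51, was that without control 1. Without control 3 and cKO 1 it was -0.75 (edgeR adjusted p = 0.00136), and again 1 of the 10 genes was called. On FPKM, limma gave a similar size, -0.65 on the log2(FPKM + 1) scale, but an adjusted p of 0.436, and in that test 0 loci were called in all (1298 of 19282 had an unadjusted p under 0.05).

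*Pvalb* encodes parvalbumin, a slow buffer of Purkinje cells and of fast-spiking inhibitory neurons. Its level was 93.5, 80.6 and 82.8 CPM in control 1, 2 and 3 and 75.5, 70.7 and 70.4 CPM in cKO 1, 2 and 3. Every control library lay above every cKO library, and control 1 was again the highest of the 6. The log2 fold change was -0.25 (SE 0.06, 95% interval -0.38 to -0.11), but the edgeR adjusted p was 0.120, above the threshold. It ranged from 0.0455 to 0.826 over the alternative fits: it passed with no filter on low counts, was highest without control 1 and was 0.0586 without control 3 and cKO 1. *Pvalb* ranked 186th of the tested loci by p, and *Calb1* 20th.

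*Calb2* encodes calretinin, a buffer of granule cells, unipolar brush cells and many auditory and vestibular neurons. The controls had 119.1, 118.3 and 107.5 CPM and the cKO libraries 109.6, 102.8 and 98.9 CPM. The groups overlapped, since cKO 1 lay above control 3. The log2 fold change of -0.15 (SE 0.06, 95% interval -0.27 to -0.03) had an unadjusted p of 0.0183 and an edgeR adjusted p of 0.564. Leaving out control 3 and cKO 1 moved it to -0.23 (edgeR adjusted p = 0.0732).

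Taken per length, the 3 buffers kept their order in all 6 libraries, *Pvalb* first, *Calb2* next and *Calb1* last. Summed over the 3 genes, the FPKM was 204.0 to 235.5 in the controls and 171.7 to 187.7 in cKO. The share of *Calb1* in this sum was 12.6% to 16.1% in the controls and 9.63% to 11.7% in cKO, and that of *Pvalb* stayed between 49.7% and 52.2% in all 6 libraries.

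*Pvalb* was the member that followed *Calb1* most closely across the 6 libraries, with a Pearson r of 0.96 between their log2 CPM. The corresponding values were 0.84 for *Hpcal1*, 0.78 for *Calb2* and -0.88 for *Vsnl1*, and the other 5 genes lay between -0.53 and 0.29. These values describe 6 points that fall into the 2 genotypes and share the scaling of each library, so they carry no test. Of the 14878 tested loci with a single name, 91 were more like *Calb1* by the same measure than *Pvalb* was. For *Hpcal1* and *Calb2* these counts were 648 and 949. The 5 loci most like *Calb1* were *Spsb4*, *Pomt2*, *Cnpy1*, *Ctnna3* and *Kcnj3*, with r from 0.992 to 0.996. Of these, *Cnpy1* was called (log2 fold change -1.84, SE 0.22, edgeR adjusted p = 5.36e-04), whereas the other 4 had adjusted p-values from 0.247 to 0.666.

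The region around the start of *Pvalb* is shown because *Pvalb* was the buffer gene that moved most closely with *Calb1* and had a matching entry among the RefSeq promoters (GRCm38.p6), which 7 of the 10 genes had. It covers 250 bases before to 50 bases after the start, at chr15:78206351-78206650 on the minus strand. Capitals mark the letters TAAT, the core that homeodomain proteins such as the HOX factors recognise, found on either strand as 2 overlapping matches.

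Pvalb: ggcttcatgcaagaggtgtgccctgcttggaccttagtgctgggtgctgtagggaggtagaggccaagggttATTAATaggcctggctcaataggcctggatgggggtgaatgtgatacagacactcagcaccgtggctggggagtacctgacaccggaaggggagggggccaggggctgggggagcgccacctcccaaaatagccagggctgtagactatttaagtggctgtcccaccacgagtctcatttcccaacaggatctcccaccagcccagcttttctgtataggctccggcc

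The same letters occur in 58.0% of the 32851 promoter windows of this length, so their presence does not set *Pvalb* apart. Those letters were also found in the windows of *S100b* and *Hpca*, and not in those of *Hpcal1*, *Hpcal4*, *Ncs1* and *Vsnl1*. The RefSeq start of the window lay 347 bases from the assembled start for *Hpca* and 186 bases for *Ncs1*, against 0 to 71 bases for the others. Whether the windows hold the starts used in these libraries was not tested. The letters TATAAA (13.6% of all windows) were in none of the 7 windows.

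*S100b* encodes a small EF-hand protein that in the brain is made mainly by astrocytes and oligodendrocytes, so that the label of a neuronal protein applies to it least. It had 265.5, 240.9 and 230.9 CPM in control 1, 2 and 3 and 285.9, 229.1 and 218.2 CPM in cKO 1, 2 and 3. The cKO libraries held both the highest and the lowest level, and the log2 fold change was -0.01 (SE 0.08, 95% interval -0.17 to 0.16, edgeR adjusted p = 0.993). Without control 3 and cKO 1 the log2 fold change was -0.18 (SE 0.06, edgeR adjusted p = 0.200). All 6 oligodendrocyte markers examined (0 called) were likewise highest in cKO 1, where they summed to 32280 CPM against 26610 to 29400 CPM in the other 5 libraries. The order of the libraries for *Mog*, a protein of the myelin surface, was cKO 1 first and cKO 3 last, as for *S100b*; it was named after its values were seen. The 7 astrocyte markers (0 called) had their highest sum, 5928 CPM, in cKO 3, where *S100b* was lowest. They summed to 5908 CPM in cKO 1. Most of the sum was *Slc1a2*, with 3714 CPM in cKO 3, and the markers differed in their order. *Aldoc* and *Gfap* were highest in cKO 1, whereas *Slc1a2*, *Aldh1l1* and *Gjb6* were highest in cKO 3. *Gja1* was highest in control 1 and *Aqp4* in control 2. *Aldoc* and *Aqp4* were lowest in cKO 3, as *S100b* was. These astrocyte markers were named after their values were seen. The part of oligodendrocytes and astrocytes in the level of *S100b* was not tested.

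*Hpca* encodes hippocalcin, a sensor best known from the hippocampus that couples calcium to a slow potassium current. It had 57.8, 53.8 and 63.0 CPM in control 1, 2 and 3 and 59.3, 68.8 and 54.1 CPM in cKO 1, 2 and 3. The groups overlapped, with a fold of 1.04 (95% interval 0.93 to 1.17, edgeR adjusted p = 0.942). *Hpcal1*, which encodes the hippocalcin-like protein also called visinin-like protein 3, had 50.4, 42.5 and 45.6 CPM in the controls and 42.2, 41.7 and 43.7 CPM in cKO. Control 2 lay below cKO 3, and the fold of 0.92 (95% interval 0.83 to 1.02) had an edgeR adjusted p of 0.823. Without control 1 the log2 fold change moved from -0.12 to -0.05.

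*Hpcal4*, the gene of visinin-like protein 2, and *Ncald*, that of neurocalcin delta, were highest in the same library as *Hpca*, cKO 2. *Hpcal4* had 88.0, 90.1 and 99.1 CPM in control 1, 2 and 3 and 81.9, 104.5 and 87.9 CPM in cKO 1, 2 and 3. Both its highest and its lowest level were in cKO, and the fold was 0.99 (95% interval 0.89 to 1.10, edgeR adjusted p = 0.989). *Ncald* had 177.8, 168.4 and 171.2 CPM in the controls and 176.2, 181.5 and 158.9 CPM in cKO. Its fold was 1.00 (95% interval 0.92 to 1.08, edgeR adjusted p = 0.997), and here too the cKO libraries spanned the controls.

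*Ncs1*, which encodes neuronal calcium sensor 1 (frequenin), a regulator of transmitter release, varied little. The controls had 320.8, 322.9 and 325.1 CPM and the cKO libraries 337.5, 332.4 and 320.8 CPM, so that the highest library of the 6 was 1.05-fold above the lowest. The fold between genotypes was 1.02 (95% interval 0.96 to 1.09, edgeR adjusted p = 0.942). *Vsnl1*, the gene of visinin-like protein 1, had 409.5, 410.5 and 416.1 CPM in control 1, 2 and 3 and 430.9, 422.1 and 424.5 CPM in cKO 1, 2 and 3. Every cKO library was above every control, yet by a small step: the fold was 1.03 (95% interval 0.97 to 1.10) and the edgeR adjusted p 0.901. For *Hpca*, *Hpcal1*, *Hpcal4*, *Ncald*, *Ncs1* and *Vsnl1*, the intervals lay within 0.83 to 1.17 of the control level, which does not show that the levels were equal.

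Per length, *Vsnl1* was the highest of the 10 genes in both genotypes, with 231.3 ± 1.17 FPKM in the controls and 238.4 ± 0.930 FPKM in cKO (SD, n = 3). In the controls, *S100b* (141.9 FPKM), *Pvalb* (109.7 FPKM), *Ncs1* (81.3 FPKM), *Calb2* (75.3 FPKM) and *Ncald* (47.8 FPKM) followed, each with a range that did not overlap that of the next. *Hpca* (35.2 FPKM), *Hpcal1* (30.9 FPKM) and *Calb1* (30.6 ± 6.45 FPKM) could not be ordered beyond their spread in the controls, since the ranges of neighbours overlapped. *Hpcal4* was last there, with 21.7 FPKM. In cKO, *Calb1* was last with 19.0 ± 1.56 FPKM and overlapped *Hpcal4* (21.4 FPKM). These are abundant transcripts: the mean FPKM of *Hpcal4* exceeded that of 85.1% of the tested loci, and that of *Vsnl1* 99.3%.

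**Figure D2:**
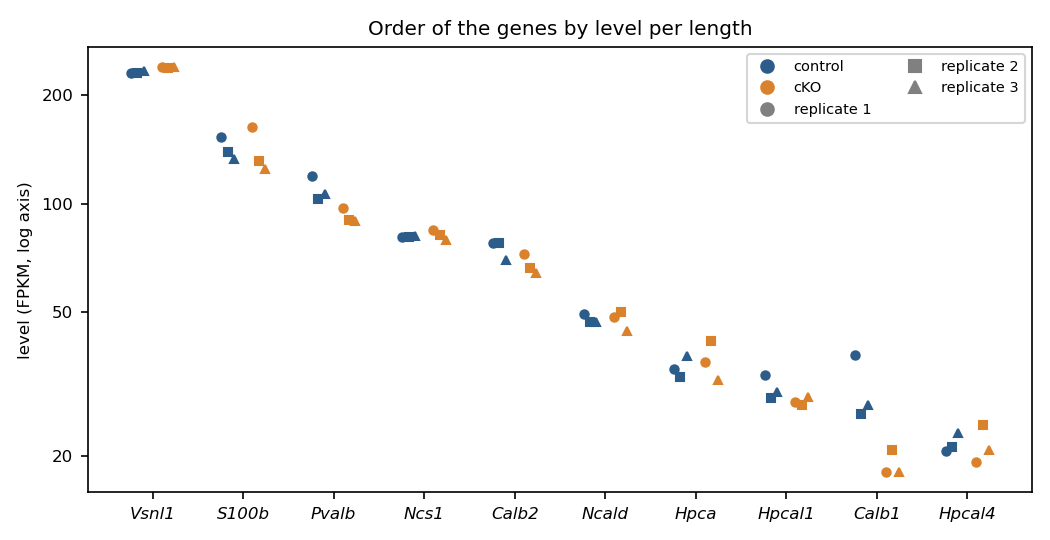
Level per transcript length (FPKM, log axis) of the 10 genes, ordered by their mean in the controls; each point is 1 library, blue for control and orange for cKO. *Vsnl1* is highest in both genotypes, and *Calb1* moves from a mean of 30.6 FPKM in the controls to 19.0 FPKM in cKO, below *Hpcal4*.

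The change of *Calb1* can be set beside the rest of the EF-hand family. Of 48 other calcium-binding genes listed in 6 families, 31 were tested and 0 were called by edgeR or DESeq2. Over all 21854 tested loci these tests called 116 and 118. Calls were that rare over all loci, so 0 of 31 does not set *Calb1* apart from its family. Of the 31 genes, 2 had an unadjusted p under 0.05 in edgeR and 1 in DESeq2, against 1516 and 711 of all tested loci. Those 2 were *Necab3*, a neuronal EF-hand protein (log2 fold change -0.27, SE 0.08, edgeR adjusted p = 0.202), and *Cabp1*, a calmodulin-like regulator of calcium channels (0.16, SE 0.06, edgeR adjusted p = 0.590). The genotypes did not overlap for 3 genes lower in cKO (*Necab3*, *Caln1* and *Calml4*) and for 2 higher (*Cabp1* and *Cib2*), against the 6.54% and 5.61% of all loci given above; *Caln1*, *Calml4* and *Cib2* were named after their values were seen. The median log2 fold change of the 31 genes was -0.02. The remaining 17 had at most 39 fragments in any library, and 2 of them, *Guca1a* and *S100z*, had 0 in every library.

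The gene *Calm3* encodes calmodulin, the general calcium sensor of all cells, and had the highest mean level of the listed genes, 516.7 FPKM, with a log2 fold change of 0.00 (SE 0.05). The calcineurin subunit gene *Ppp3r1* had 112.2 FPKM (log2 fold change 0.08, SE 0.05) and *Chp1*, a partner of sodium-proton exchangers, 53.2 FPKM (0.06, SE 0.06). Of the other S100 genes, *S100a1* had 50.2 FPKM (0.04, SE 0.08) and *S100a16* 42.9 FPKM (-0.16, SE 0.09). *Cabp7* and *Cabp1* had 40.5 and 37.5 FPKM, with a log2 fold change of 0.08 (SE 0.05) for *Cabp7*. The potassium channel partners *Kcnip4* and *Kcnip3* had 21.7 and 14.5 FPKM and log2 fold changes of -0.07 (SE 0.06) and -0.11 (SE 0.07), while *Necab3* and *Necab2* had 17.7 and 14.3 FPKM, with -0.01 (SE 0.09) for *Necab2*.

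**Figure D3:**
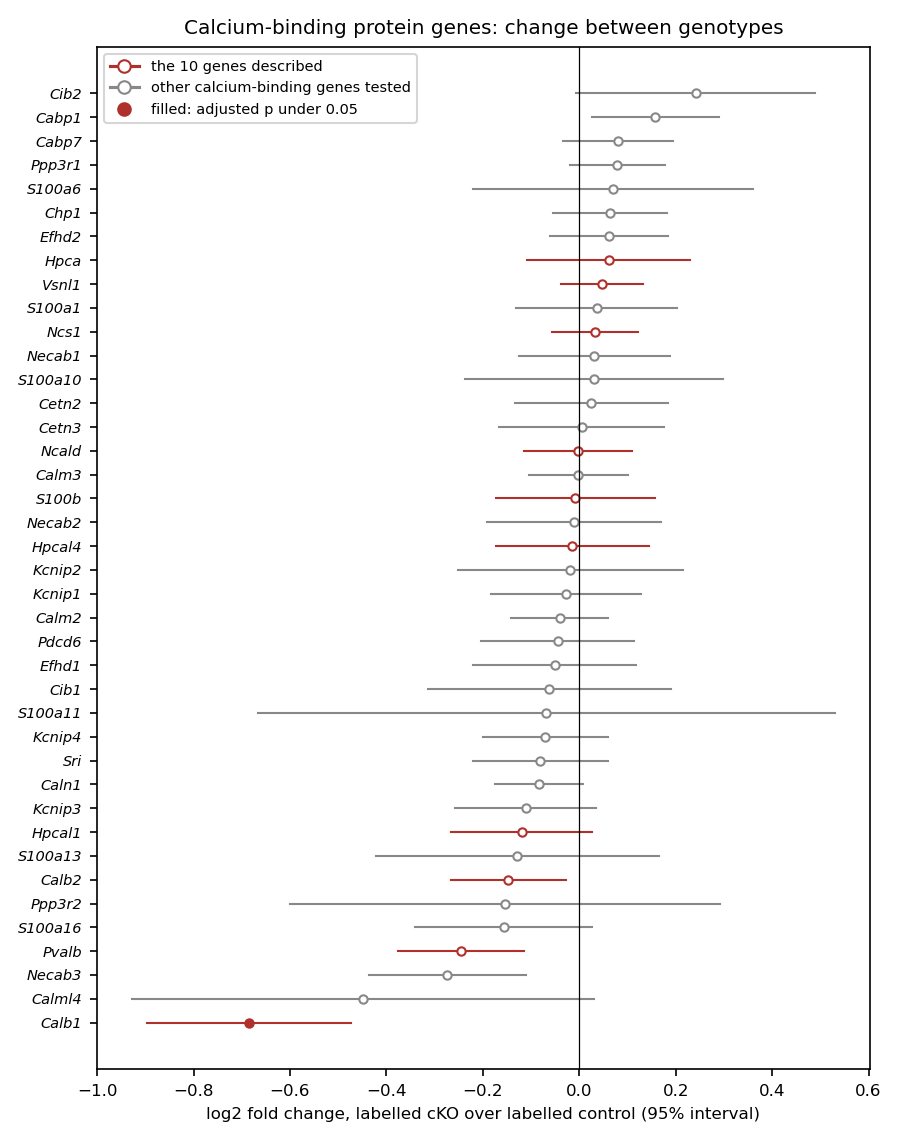
Log2 fold change of cKO over control (x axis, with 95% interval) for the 10 genes described (red) and other calcium-binding genes tested (grey), ordered by size. Of the genes drawn only *Calb1*, at -0.69, is filled as passing an adjusted p of 0.05.

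Markers of Purkinje cells, granule neurons and Bergmann glia were lower in cKO together with *Calb1*, in part or in full. Of 8 Purkinje cell markers, 4 were called lower: *Pcp2* (log2 fold change -1.81, SE 0.23), *Ppp1r17* (-1.88, SE 0.24), *Car8* (-1.64, SE 0.19) and *Slc1a6* (-0.70, SE 0.13). The list summed to 336.8, 198.3 and 223.8 CPM in control 1, 2 and 3 and to 122.4, 156.6 and 139.8 CPM in cKO 1, 2 and 3. The other 4 were not called and were named after their values were seen: *Rgs8* was at -0.53 (SE 0.14), *Gng13* at -0.40 (SE 0.12), *Casq2* at -0.24 (SE 0.21) and *Skor2* at 0.08 (SE 0.30), and the genotypes overlapped for *Rgs8*, *Casq2* and *Skor2*. No marker of the list was at 0 in any library. The 6 granule neuron markers were all called lower (*Gabra6*, *Cbln3*, *Neurod1*, *Fat2*, *Neurod2* and *Grin2c*), with sums of 353.7 to 640.0 CPM in the controls and 163.7 to 194.9 CPM in cKO. The log2 fold changes of *Gabra6*, *Cbln3*, *Neurod1* and *Fat2* ran from -2.00 to -1.64. *Neurod2* (-0.64, SE 0.14) and *Grin2c* (-0.56, SE 0.08) fell less. The study also detected *Neurod2* and *Grin2c* transcripts in nuclei of the brainstem, and it cites *Gabra6* in some precerebellar nuclei. The 3 markers of Bergmann glia (*Gdf10*, *Hopx* and *Slc1a3*) were also called lower, with sums of 310.5 to 357.2 CPM and 249.0 to 277.8 CPM; *Slc1a3*, a glutamate transporter, is also made by other astrocytes. Control 1, the highest library for *Calb1*, *Pvalb* and *Calb2*, had the highest sum of each of these 3 lists.

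In the remaining lists, 1 gene in all was called. The 5 markers of cerebellar interneurons (0 called) summed to 173.1 to 178.5 CPM in the controls and 173.6 to 183.5 CPM in cKO, the 7 astrocyte markers (0 called) to 5649 to 5782 CPM and 5639 to 5928 CPM. Of the 2 unipolar brush cell markers 0 were called, with sums of 4.73 to 5.65 CPM and 4.11 to 4.53 CPM that did not overlap; *Eomes* was at -0.98 (SE 0.28) and *Lmx1a* at 0.45 (SE 0.23), both named after their values were seen. Of the 6 hindbrain and 2 tested telencephalic markers 0 were called. Among 4 markers of all neurons, *Rbfox3* was called lower (log2 fold change -0.30, SE 0.06, edgeR adjusted p = 0.0205) and 3 were not. The part of cerebellar cells in the change of *Calb1*, or in the values of *Pvalb* and *Calb2*, was not tested.

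**Figure D4:**
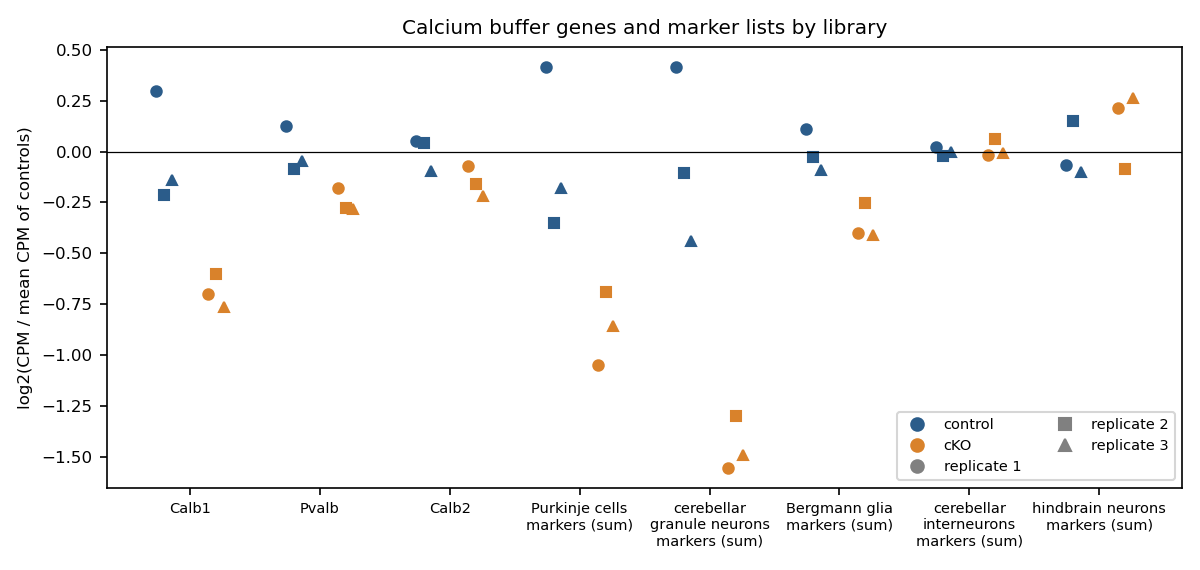
Level of the 3 buffer genes and summed level of 5 marker lists in each library, as log2 of the CPM over the mean CPM of the controls (y axis); blue points are controls, orange points cKO, and symbols give the replicate. The Purkinje cell, granule neuron and Bergmann glia sums part by genotype, as *Calb1* and *Pvalb* do, whereas the interneuron and hindbrain sums overlap.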

How the data were processed

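RNA of 6 libraries of pooled mouse brainstem (3 per genotype, each of 3 brainstems) was depleted of ribosomal RNA and sequenced with a stranded kit. Per the submitters' notes, the authors used CASAVA 1.6 for base calls, TopHat2 2.0.9 for alignment to mm10, Cufflinks 2.2.0 for a merged transcript assembly and Cuffdiff for the levels of its loci. The deposited table gives whole fragment counts per locus and library, and the deposited FPKM were scaled between libraries by Cuffdiff; its 2 columns of scaled fragments were not used. Gene names and positions came from the deposited assembly.

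Counts were normalised by TMM, filtered with filterByExpr and compared between all 6 libraries by the quasi-likelihood test of edgeR 4.0.16 in R 4.3.3, with Benjamini-Hochberg adjustment over 21854 loci. A locus was called at an adjusted p under 0.05. Cuffdiff's own test was not used. The common coefficient of biological variation was 0.0552. Same-genotype libraries differed by more than sampling noise (chi-square per locus 2.1 to 8.49), so none was counted as a repeat. On simulated counts for this comparison (21344 loci), edgeR recovered 62.7% of the loci raised or lowered 1.5-fold, 78.1% of those at 2-fold and 97% of those at 4-fold, and 17 of its 173 calls were false.

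The replicate numbers of the table were taken as names within a genotype, since nothing ties them to a pool. The members and gene lists were chosen with earlier results of these data known. Named were the 10 genes, the *Hoxa5* locus, of each of the 6 families of other calcium-binding genes the called genes and the 2 with the highest mean FPKM, of each of 10 marker lists the called genes and those at 0, and the 5 loci most like *Calb1* by Pearson r. *Chp1* was found under an older name. Alternatives were DESeq2 1.42.0, limma 3.58.1 on log2(FPKM + 1) and log2(FPKM + 0.1), library size alone, upper-quartile factors, no filter, at least 50 fragments in 3 libraries, the replicate number as a block, and each library left out. Protein sequences were not used here, and some genes that the naming rule takes in are not reported here.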

Additional observations from a re-analysis of the deposited data

How the results depend on the processing

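edgeR called 116 loci and DESeq2, on the same tested loci, 118. The count was 0 and 1 with limma on log2(FPKM + 1) and log2(FPKM + 0.1), which changes test, unit and loci tested at once, 221 with no filter on low counts and 76 with at least 50 fragments in 3 libraries. With 1 library left out, 44 (without control 1) to 126 were called, and 65 without cKO 3. Of the 10 genes, 1 was called in each of these leave-one-out fits (lowest 1, highest 1), 0 with limma on either scale and 2 with no filter, where *Pvalb* passed at -0.24 (edgeR adjusted p = 0.0455). *Calb1* kept its size with limma, at -0.65 (adjusted p = 0.436) and -0.67 (adjusted p = 0.463), but not its call, and ranged from -0.78 to -0.51 with 1 library left out. *Pvalb* then ranged from -0.29 to -0.18 and *Hpcal1* from -0.18 to -0.05. The other calcium-binding genes had 0 calls in every fit.

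Genes near 0 changed sign. *S100b* was 0.0042 with upper-quartile factors and -0.1355 to 0.0665 with 1 library left out. So left out, *Hpca* ranged from -0.0358 to 0.1385, *Hpcal4* from -0.1185 to 0.0578 and *Ncald* from -0.038 to 0.0524. *Ncald* was 0.0101 with upper-quartile factors and 0.0034 with at least 50 fragments. *Hpcal4* was 0.11 without control 3 and cKO 1, a choice made after seeing the data. The cause of these shifts was not tested.

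The replicate numbers did not pair the libraries: deviations of same-numbered libraries correlated at 0.03, -0.08 and 0.05. With the replicate block, *Calb1* was at -0.67 (edgeR adjusted p = 3.76e-04), *Pvalb* at -0.24 (0.0624) and 130 loci were called. Summing fragments over all loci of a name was not run, since each gene lay on 1 locus. With no filter on low counts, 46 of the 48 other calcium-binding genes were tested. Of these 46 genes, 5 had an unadjusted p under 0.05, against 1970 of all 30931 loci in that fit.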
